A study of Mus musculus with 2 samples.

Results

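Genes of the TNF receptor superfamily and their ligands were followed in single CD4 T cells from mouse spleen. The set held 9 of the 35976 gene rows in the count tables, taken by name: the receptors Tnfrsf9, Tnfrsf4, Tnfrsf18, Tnfrsf1b, Tnfrsf14 and Cd27, and the ligands Cd40lg, Tnfsf8 and Tnf. The study asked how an IL-13 signal contributes to follicular helper T cells, which drive antibody responses from B cells. OTII cells, CD4 T cells with a transgenic receptor for ovalbumin, were transferred into host mice and sorted from the spleen on day 7 after CAS, an abbreviation the labels do not explain, and a second priming. One pool held cells from 3 hosts labelled IL13Ra1f/f, CD11cCre/+ (deleted hosts), in which the receptor gene is removed in host cells that express CD11c, mainly dendritic cells with some macrophages, and not in the transferred T cells. Il13ra1 reads in the sorted cells therefore do not check the labels. The other pool held cells from 2 hosts labelled C57BL/6 (control hosts), for which neither Cre nor a floxed gene is named. Host ages are not given. The gate took PI-, Vb5.1-5.2+, CD4+ cells with no marker named that separates transferred from host cells, so host CD4 T cells with that receptor chain could also pass.

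TNF family ligands are mostly membrane proteins on one immune cell that engage receptors on another. Many receptors on T cells, among them 4-1BB, OX40, GITR, TNFR2 and CD27, recruit TRAF adaptor proteins and feed the NF-kappaB pathway, which favours survival and growth of activated cells. On CD4 T cells CD40 ligand is the signal that B cells need for germinal centres. Naive cells typically carry CD27, while OX40 and 4-1BB appear after activation and GITR, OX40 and TNFR2 are high on regulatory T cells.

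Each pool was spread over 4 plates of 92 cell wells, 368 cells in each pool and 736 in all. Libraries were made with SmartSeq2, which reads full-length cDNA from cells in single wells. Reads in genes were 542650671 in the deleted pool, 125197307 to 143937319 per plate, and 573105030 in the control pool, 137968663 to 148025125 per plate. Medians per cell were 1499762 reads in the deleted pool and 1592795 in the control pool. The 9 markers of CD4 T cells together held 9173 counts per 1000000 reads (CPM) in the deleted pool and 8781 CPM in the control pool, and each had positive cells in both. Of the other lineages, the lists for CD8 T cells, NK and innate lymphoid cells, macrophages, dendritic cells, B cells and erythroid cells summed to 6.32 to 74.7 CPM each in the deleted pool and 5.09 to 48.8 CPM each in the control pool. The CD8 list was at 9.47 CPM in the deleted pool and 26.5 CPM in the control pool. All 3 platelet markers lacked a positive cell. With 1 pooled sample per group there is no replicate animal and no test. Plates are technical splits of a pool, and plate and pool cannot be told apart, because no plate held cells of both.

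All 9 genes were present above the minimum of 5 CPM, as the mean of both pools, and 6 of them lie on chromosome 4 of the GRCm38 (mm10) assembly. Tnfrsf4 (chr4:156013843-156016612) and Tnfrsf18 (chr4:156026164-156028895) are neighbours on the + strand, 9551 bases apart. Tnfrsf9 (chr4:150914562-150946102, + strand), Tnfrsf14 (chr4:154921933-154928563, - strand), Tnfrsf1b (chr4:145213463-145246870, - strand) and Tnfsf8 (chr4:63831308-63861347, - strand) are the other 4. Cd27 is on chromosome 6 (125232622 to 125237010), Cd40lg on chromosome X (57212143 to 57224042) and Tnf on chromosome 17 (35199381 to 35202007). Tnfrsf4 overlaps Sdf4, and Cd27 overlaps E130112N10Rik and Mir8113. The strand setting of the counting is not given, so reads of these overlapping genes cannot be told apart with certainty.

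Promoter windows are shown for Tnfrsf9, Tnfrsf4 and Tnfrsf18, receptors that were often positive in the same cells, and because Tnfrsf9 alone of the 8 genes with a window held a match to either motif searched. Tnfrsf9 has a second window, at chr4:150919905-150920204, which held no match and is not printed. Each runs from 250 bases before to 50 bases after a transcript start in RefSeq on GRCm38.p6, and capitals mark motif matches.
Tnfrsf9, chr4:150927749-150928048, + strand: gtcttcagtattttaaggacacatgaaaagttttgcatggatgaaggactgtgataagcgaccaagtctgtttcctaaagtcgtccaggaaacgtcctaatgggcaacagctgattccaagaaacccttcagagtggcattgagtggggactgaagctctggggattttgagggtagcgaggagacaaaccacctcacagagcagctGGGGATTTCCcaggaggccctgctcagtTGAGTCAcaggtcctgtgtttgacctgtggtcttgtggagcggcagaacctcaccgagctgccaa
Tnfrsf4, chr4:156013445-156013744, + strand: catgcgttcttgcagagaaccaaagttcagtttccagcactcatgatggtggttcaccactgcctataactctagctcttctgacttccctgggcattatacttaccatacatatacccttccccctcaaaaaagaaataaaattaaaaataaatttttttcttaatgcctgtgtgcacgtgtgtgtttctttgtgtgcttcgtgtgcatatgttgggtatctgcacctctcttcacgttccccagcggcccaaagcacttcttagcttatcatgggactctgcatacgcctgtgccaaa
Tnfrsf18, chr4:156026072-156026371, + strand: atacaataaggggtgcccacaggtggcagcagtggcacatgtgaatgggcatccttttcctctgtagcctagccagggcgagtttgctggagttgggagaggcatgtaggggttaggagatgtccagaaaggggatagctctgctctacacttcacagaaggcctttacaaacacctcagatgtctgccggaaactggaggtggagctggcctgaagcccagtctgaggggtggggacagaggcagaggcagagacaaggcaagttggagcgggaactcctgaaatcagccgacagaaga
In the Tnfrsf9 window GGGGATTTCC, a match to the NF-kappaB-like motif (GGG, any 2 bases, TTTCC), lies from base -43 to -34 relative to the start. TGAGTCA, a match to the AP-1-like TGANTCA, lies from base -15 to -9. Both strands were searched, and the AP-1-like match reads on both strands at the same bases. Of 32851 promoter windows of this length, 1.63% held the first motif and 7.81% the second. A match is a description of letters and no measurement of binding.

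Per kilobase of exon, Cd27 was the most abundant of the 9 transcripts and Tnf the least. Cd27 stood at 253 RPKM (CPM per kilobase of exon) in the deleted pool and 276 in the control pool. In the deleted pool the order went on with Tnfrsf18 (99.0 RPKM), Tnfrsf9 (82.0), Cd40lg (71.2), Tnfrsf4 (41.2), Tnfrsf14 (31.1), Tnfrsf1b (28.0), Tnfsf8 (26.8) and Tnf (2.29). In the control pool it was Tnfrsf18 (149 RPKM), Cd40lg (74.0), Tnfrsf9 (47.0), Tnfsf8 (32.0), Tnfrsf14 (29.2), Tnfrsf4 (25.1), Tnfrsf1b (17.6) and Tnf (14.4). The ranges over plates of neighbours in these orders overlapped, with 3 exceptions. In the deleted pool the range of Cd27 lay above that of Tnfrsf18 and the range of Tnf below that of Tnfsf8, and in the control pool the range of Tnfrsf18 lay above that of Cd40lg.

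Between the pools, 8 of the 9 genes were within 2-fold and Tnf was lower in the deleted pool. None was 2-fold higher, where 4.52% of the 9295 genes with a mean of at least 5 CPM were, and 1 of 9 was 2-fold lower, where 5.28% of all genes were. No gene of the 9 had every plate of one pool above every plate of the other in CPM, against 4.2% of all genes in either direction. The median log2 ratio, deleted over control with 1 CPM added to each, was -0.05 over the 9 genes and -0.04 over all 9295. In the plot of levels by plate, the plates of the pools overlap for each gene.

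**Figure D1:**
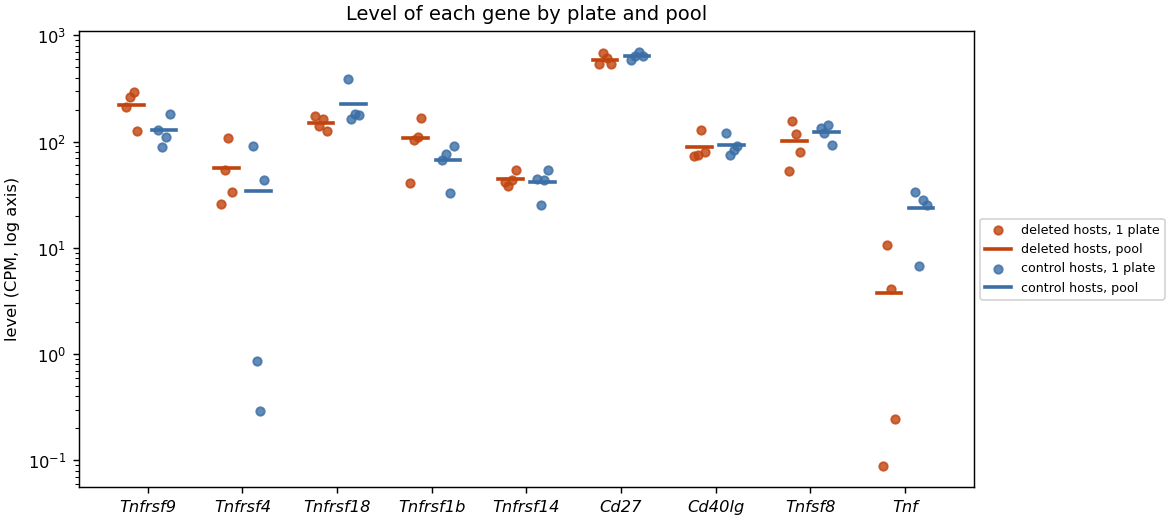
Level of each of the 9 genes in CPM (log axis). Points are plates, deleted hosts in orange on the left and control hosts in blue on the right, and bars are pools. Tnf spans 0.0879 to 10.6 CPM over the deleted plates and 6.70 to 33.5 CPM over the control plates, and the plates of the pools overlap for each gene.

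Positive means that a cell held at least 10 CPM of a gene and no less than 5% of the mean over its plate. Shares have exact (Clopper-Pearson) 95% intervals, which cover the counting error of cells only. No interval is given for levels from read counts, since PCR copies are not separate molecules. In the 9 wells without a cell the most reads of any of the 9 genes was 7, and 18 of the 1325 positive calls rested on 7 reads or fewer. The bar plot of shares shows the intervals of the pools overlapping for each gene.

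**Figure D2:**
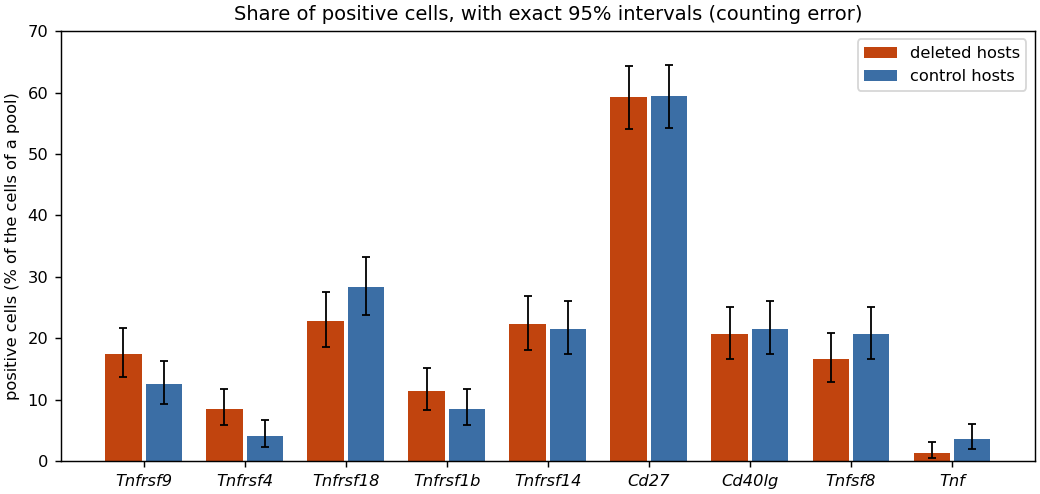
Share of cells positive for each gene, in percent of the 368 cells of a pool, deleted hosts left of control hosts. Bars are shares and lines are exact 95% intervals. Cd27 is at 59.2% in deleted and 59.5% in control hosts, Tnf at 1.36% in deleted and 3.53% in control hosts, and the other genes lie between.

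Tnfrsf9 encodes 4-1BB, a costimulatory receptor induced by antigen. Its plates held 213, 262, 296 and 126 CPM in the deleted pool and 128, 89.0, 111 and 181 CPM in the control pool. Deleted plates 1 to 3 were above every control plate and deleted plate 4 lay among them. The pools stood at 223 CPM in deleted hosts and 128 CPM in control hosts, a log2 ratio of 0.80, which passed 2-fold only when deleted plate 4 (1.01) or control plate 4 (1.02) was left out. Positive cells were 64 of 368 in the deleted pool (17.4%, 13.7 to 21.7) and 46 of 368 in the control pool (12.5%, 9.30 to 16.3). By plate these were 17, 16, 17 and 14 positive cells in the deleted pool and 13, 10, 12 and 11 in the control pool. The counts of positive cells did not overlap between pools, which held for 0.871% of all genes in this direction, but with calls on 7 reads or fewer taken out deleted plate 4 and control plate 1 had 13 each. In positive cells the median level was 865 CPM in the deleted pool and 787 CPM in the control pool.

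Tnfrsf18 encodes GITR, a costimulatory receptor abundant on regulatory and activated T cells, and its share of positive cells was lower in the deleted pool. Plates held 22, 22, 22 and 18 positive cells in the deleted pool and 31, 24, 25 and 24 in the control pool. Every deleted plate was below every control plate, as for 1.26% of all genes, and this was so also without calls on 7 reads or fewer and without Foxp3-positive cells. This look at positive cells by plate was added after the values were seen. The shares were 22.8% (18.6 to 27.5) in the deleted pool and 28.3% (23.7 to 33.2) in the control pool, with overlapping intervals. In CPM the plates were 176, 141, 163 and 127 in the deleted pool and 385, 163, 181 and 177 in the control pool. Control plate 1 was the highest, and the highest deleted plate lay above the lowest control plate. The log2 ratio was -0.59, and -0.21 without control plate 1. That plate held the cell with the highest level of this gene, at 5888 CPM, but leaving out the highest cell of each pool gave -0.51.

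Tnfrsf4 encodes OX40, which binds OX40 ligand on antigen-presenting cells and supports T cell expansion and memory. It was unevenly spread over plates, at 26.1, 54.6, 109 and 33.7 CPM in the deleted pool and 91.1, 0.855, 0.293 and 43.1 CPM in the control pool. Deleted plates held 5, 5, 12 and 9 positive cells, while control plates 1 and 4 held 7 each and control plates 2 and 3 held 1 and 0. In all 31 cells of the deleted pool (8.42%, 5.80 to 11.7) and 15 of the control pool (4.08%, 2.30 to 6.63) were positive. The pools stood at 56.3 CPM in deleted hosts and 34.3 CPM in control hosts, a log2 ratio of 0.70. Leaving out deleted plate 3 gave 0.16, control plate 1 gave 1.82, and control plate 2 or 3 gave 0.32 or 0.30, so single plates decide it. The highest 5 cells held 37.8% of the gene's CPM in the deleted pool and 64.7% in the control pool.

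Tnfrsf1b encodes TNFR2, a receptor for TNF. Plates held 40.7, 103, 110 and 166 CPM in the deleted pool and 66.6, 76.4, 33.1 and 91.5 CPM in the control pool. Deleted plates 2 to 4 were above every control plate and deleted plate 1 was above control plate 3 alone. The log2 ratio was 0.67, and 0.35 without deleted plate 4 or 0.45 without control plate 3. Positive cells were 42 in the deleted pool (11.4%, 8.35 to 15.1) and 31 in the control pool (8.42%, 5.80 to 11.7).

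Tnfrsf14, which encodes HVEM, the partner of LIGHT and BTLA, was nearly level between pools. Plates held 42.0, 38.2, 43.5 and 54.1 CPM in the deleted pool and 44.1, 25.3, 43.6 and 54.1 CPM in the control pool, with a log2 ratio of 0.08, between -0.08 and 0.23 with a plate left out. It was positive in 82 cells of the deleted pool (22.3%) and 79 of the control pool (21.5%), at a low level per cell. The median in positive cells was 150 CPM in the deleted pool and 149 CPM in the control pool, the lowest of the 6 receptors in this set.

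Cd27, the receptor for CD70, was the most widespread of the 9. Plates held 534, 680, 609 and 535 CPM in the deleted pool and 582, 642, 699 and 644 CPM in the control pool. Positive cells were 218 in the deleted pool (59.2%, 54.0 to 64.3) and 219 in the control pool (59.5%, 54.3 to 64.6), and the log2 ratio was -0.12. Relative to its level, its plates within each pool lay closer together than those of the other 8 genes, and its highest 5 cells held only 8.40% of its CPM in the deleted pool and 6.49% in the control pool.

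Among the ligands, Cd40lg, the T cell signal to CD40 on B cells and dendritic cells, differed little between the pools. Plates held 73.9, 74.2, 127 and 79.2 CPM in the deleted pool and 120, 74.1, 83.7 and 91.5 CPM in the control pool. Deleted plate 3 and control plate 1 were the high ones, and the log2 ratio was -0.05, between -0.28 and 0.09 with a plate left out. Positive cells were 76 in the deleted pool (20.7%) and 79 in the control pool (21.5%).

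Tnfsf8 encodes the ligand of CD30. Its plates held 52.6, 155, 117 and 80.1 CPM in the deleted pool and 133, 120, 142 and 93.2 CPM in the control pool. The deleted plates spread wider than the control plates and covered their whole range. The log2 ratio was -0.26, and -0.53 without deleted plate 2 or -0.06 without deleted plate 1. Positive cells were 61 in the deleted pool (16.6%, 12.9 to 20.8) and 76 in the control pool (20.7%, 16.6 to 25.2).

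Tnf, the inflammatory cytokine that binds TNFR1 and TNFR2, was the one gene past 2-fold, and few cells carried it. Plates held 0.0879, 10.6, 4.08 and 0.243 CPM in the deleted pool and 33.5, 6.70, 28.1 and 25.4 CPM in the control pool. Deleted plate 2 lay above control plate 2, and the other deleted plates lay below every control plate. The pools stood at 3.75 CPM in deleted hosts and 23.6 CPM in control hosts, a log2 ratio of -2.37, with a range of -3.30 to -2.03 when a plate was left out. Positive cells were 5 in the deleted pool (1.36%, 0.443 to 3.14) and 13 in the control pool (3.53%, 1.89 to 5.97). The highest 5 cells held 97.2% of the Tnf CPM in the deleted pool and 63.0% in the control pool, so the level rests on a handful of cells. The median in positive cells was 304 CPM in the deleted pool and 514 CPM in the control pool.

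**Figure D3:**
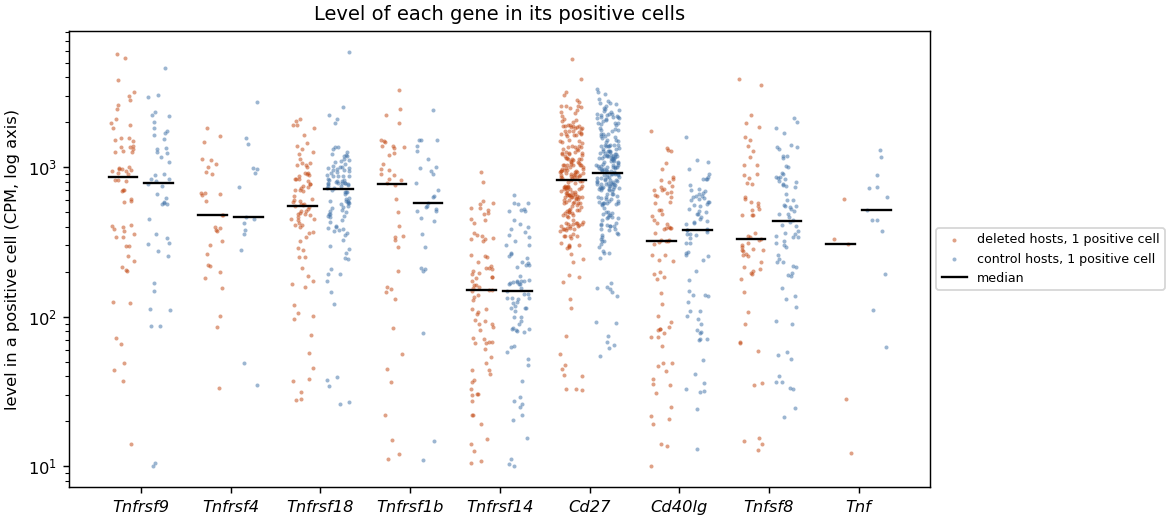
Level of each gene in its positive cells, in CPM on a log axis, 1 point per cell, deleted hosts left of control hosts, with the median as a black bar. Cells of both pools cover the same range for most genes, Tnfrsf14 has low medians (150 CPM in deleted and 149 CPM in control hosts), and Tnf has 5 cells in the deleted pool and 13 in the control pool.

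Most cells carried at least 1 of the 9 transcripts and about as many carried 2 or more as not. Cells positive for 2 or more were 183 in the deleted pool (49.7%, 44.5 to 55.0) and 199 in the control pool (54.1%, 48.8 to 59.3). By plate this share ran from 42.4% to 58.7% in the deleted pool and from 50% to 57.6% in the control pool, so the pools overlap. The mean number of positive genes per cell was 1.80 in each pool, over plates 1.67 to 2.01 in the deleted pool and 1.63 to 1.93 in the control pool. No positive gene was found in 44 cells of the deleted pool (12%) and 49 of the control pool (13.3%). Cells with 4 or more were 39 in the deleted pool (10.6%) and 34 in the control pool (9.24%).

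**Figure D4:**
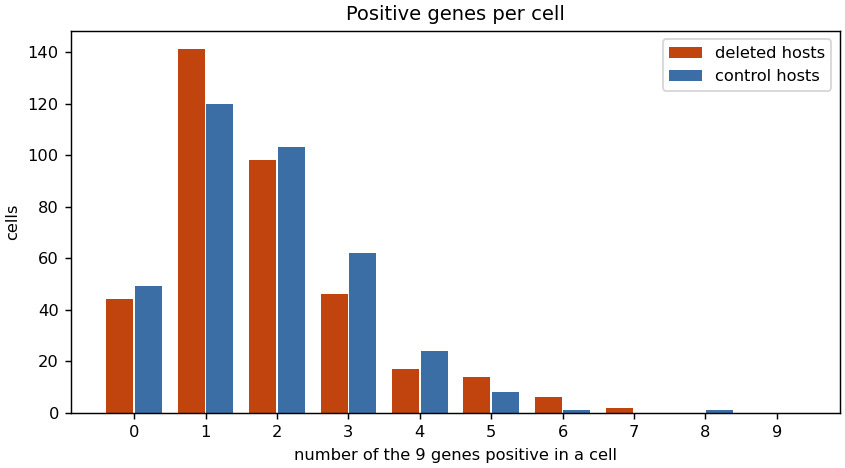
Number of cells (vertical axis) by how many of the 9 genes were positive in the cell (horizontal axis), deleted hosts left of control hosts. Cells with 1 positive gene number 141 in the deleted and 120 in the control pool, and few cells have 5 or more.

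Cells with more positive genes also had more genes detected. The median number of genes with at least 5 reads was 1393 in cells with none of the 9 positive, 1570 in cells with 2, and 2088.5 in cells with 5, over both pools. The 2 cells with 7 positive genes were shallow wells of the deleted pool with 9905 and 71129 reads, and none of their calls was on more than 7 reads. Wells without a cell held 6698 to 12348 reads. The cell with 8 positive genes was in the control pool, with 2317772 reads and 2263 genes, and all 8 calls were on more than 7 reads.

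Within single cells Tnfrsf4, Tnfrsf18, Tnfrsf9 and Tnfrsf1b were found together more often than their shares alone would give, most of all Tnfrsf4 with Tnfrsf18 and with Tnfrsf1b. For each of the 36 gene pairs, cells positive for both were set beside the product, the number that the shares of the pair on each plate would give if the genes were unrelated. Of 29 pairs with a product of at least 5 cells, 10 reached 1.5 times the product (34.5%), against 5.4% of 22714378 pairs with such a product among 8484 genes, and the median ratio was 1.18 for the 29 pairs and 1.05 over all pairs. When the product was taken within 3 equal bins of genes detected as well, 6 pairs reached 1.5 and the median was 1.09, a setting that was chosen after seeing the data. The share over all pairs was not taken in that setting, and it was not matched for the size of the product. All correlations of level between the 9 genes within plates were weak, at most 0.25 in size.

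Tnfrsf4 and Tnfrsf18 were both positive in 31 cells where the product was 11.5, a ratio of 2.70. Thus 31 of the 46 Tnfrsf4-positive cells also carried Tnfrsf18. The count was above its product on 7 of 8 plates, and by pool it was 21 cells against a product of 7.02 in deleted hosts and 10 against 4.45 in control hosts. The ratio was 2.12 by genes detected, and 2.78 without Foxp3-positive cells. Tnfrsf4 and Tnfrsf1b met in 17 cells against a product of 5.34 (3.19, and 2.68 by genes detected). Tnfrsf9 and Tnfrsf4 met in 17 cells against 7.32, a ratio of 2.32 that was 1.65 by genes detected.

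The same held for Tnfrsf9 with Tnfrsf18, at 46 cells against 27.8, above the product on all 8 plates, though the ratio of 1.65 was 1.41 by genes detected. Tnfrsf9 with Tnfrsf1b gave 21 cells against 11.1 (1.90), and Tnfrsf18 with Tnfrsf1b gave 31 against 18.2 (1.70). Both kept a ratio over 1.5 by genes detected, at 1.72 and 1.54. The ligand Tnfsf8 was above 1.5 with Tnfrsf4 (2.45, 21 cells), Tnfrsf9 (1.57, 32 cells) and Tnfrsf18 (1.53, 55 cells), of which the first alone stayed above by genes detected (1.77). The last of the 10 pairs was Tnfrsf4 with Cd40lg, with 18 cells against 9.84 (1.83). Its ratio was 1.39 by genes detected, and it was above its product on 3 of 8 plates, with 14 cells against 6.51 in deleted hosts and 4 against 3.33 in control hosts.

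Cd27-positive cells were spread over those of its more widespread partners almost as the shares alone would give. Cd27 with Tnfrsf18 gave 115 cells against 111.6 (1.03), with Tnfrsf9 69 against 65.4 (1.06) and with Cd40lg 86 against 91.8 (0.94). Of the 29 pairs, the 4 lowest ratios were those of Tnfrsf9 with Tnfrsf14, at 15 cells against 24.1 (0.62), Tnfrsf9 with Cd40lg, at 15 against 23.2 (0.65), Cd27 with Tnf, at 8 against 10.7 (0.75), and Tnfrsf4 with Tnfrsf14, at 8 against 10.3 (0.78). Of the pairs with Tnf, only that with Cd27 had a product of at least 5 cells and was counted. In the plot of pairs the strongest colours lie in the column of Tnfrsf4.

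**Figure D5:**
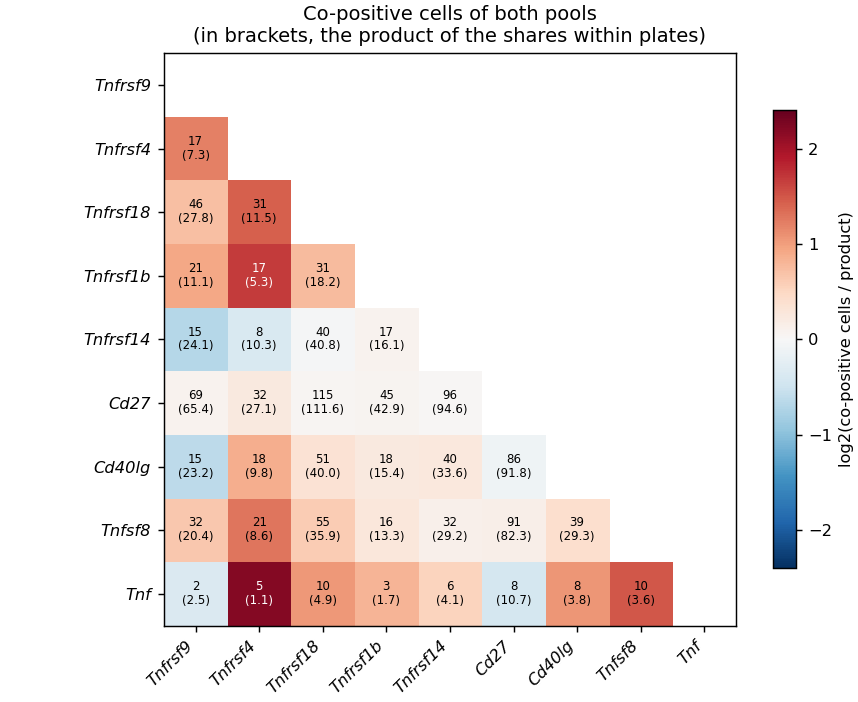
Cells of both pools positive for each pair of genes, with the product of the shares within plates in brackets. Colour is log2 of cells over product, red above and blue below. Red squares gather on Tnfrsf4, Tnfrsf18, Tnfrsf9, Tnfrsf1b and Tnfsf8, and the row of Cd27 is pale. Squares with Tnf rest on 10 cells or fewer.

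All 3 of Tnfrsf9, Tnfrsf4 and Tnfrsf18 were positive in 10 cells of the deleted pool (2.72%) and 6 of the control pool (1.63%). Exactly 2 were positive in 26 cells of the deleted pool and 20 of the control pool, and 1 in 97 cells of the deleted pool and 107 of the control pool. Cells with none of the 3 numbered 235 in each pool (63.9%). The intervals for all 3 overlap, at 1.31% to 4.94% in the deleted pool and 0.601% to 3.52% in the control pool.

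Foxp3, the factor that defines regulatory T cells, was positive in 14 cells, 6 of the deleted pool and 8 of the control pool. Of these, 8 carried Tnfrsf4 (57.1%, 28.9 to 82.3), against 38 of the other 722 cells (5.26%). Tnfrsf18 was positive in 9 of the 14 (64.3%) and in 24.8% of the rest, and Tnfrsf9 in 5 (35.7%) and in 14.5% of the rest. Most Tnfrsf4-positive cells, 38 of 46, were thus without a Foxp3 call. The 14 genes of the regulatory T cell list summed to 1254 CPM in deleted hosts (plates 972 to 1463) and 1153 CPM in control hosts (plates 903 to 1361), with overlapping plates. The largest term of the sum was Izumo1r, at 690 CPM in deleted and 805 CPM in control hosts. Of the 12 list genes measured, 3 were 2-fold higher in the deleted pool and 0 lower, against 4.52% and 5.28% of all genes. The median log2 ratio was 0.61, where it was -0.04 over all genes. The 3 were Nrp1 (53.7 CPM in deleted and 23.4 CPM in control hosts), Gpr83 (44.4 CPM in deleted and 16.7 CPM in control hosts) and Klrg1 (12.3 CPM in deleted and 0.106 CPM in control hosts). Few cells carried them. Positive cells of the deleted and control pools were 20 and 10 for Nrp1, 13 and 9 for Gpr83, and 3 and 0 for Klrg1. The highest 5 cells of the deleted pool held 54.2% of the Nrp1 CPM, 72.0% for Gpr83 and 98.6% for Klrg1. None of the 12 had its plates apart, against 4.2% of all genes, and Izumo1r and the 3 were named after their values were seen. The part of these genes' cells in the receptor levels was not tested beyond leaving out Foxp3-positive cells. Leaving out the Foxp3-positive cells gave Tnfrsf4 a log2 ratio of 0.77, where it was 0.70 with them. Ctla4, an inhibitory receptor shared by regulatory and activated T cells, was positive in 64.5% of Tnfrsf4-positive and 30.3% of Tnfrsf4-negative cells of the deleted pool, and in 53.3% and 17.6% of those of the control pool. Ikzf2, which encodes Helios, was positive in 42.2% of Tnfrsf9-positive and 17.8% of Tnfrsf9-negative cells of the deleted pool, and in 39.1% and 12.7% of those of the control pool. These pairs were picked after the values were seen, and other pairs with context genes departed as far from the product, up or down. Among them Ikzf2 with Cd40lg lay below it, at 20 cells against 29.3 (0.58 by genes detected). By genes detected, the ratio to the product for Ctla4 was 1.66 with Tnfrsf4, 0.97 with Tnfrsf9 and 1.01 with Tnfrsf18. For Ikzf2 it was 1.69 with Tnfrsf9, 1.17 with Tnfrsf4 and 1.25 with Tnfrsf18.

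Tnfaip3, an NF-kappaB target that restrains TNF receptor signalling, was higher on every deleted plate, as were 1.62% of all genes, at 512 CPM in the deleted pool and 137 CPM in the control pool. It was positive in 50% of Tnfrsf9-positive and 49.3% of Tnfrsf9-negative cells of the deleted pool, and in 28.3% and 16.2% of those of the control pool. Its higher share in the deleted pool was therefore seen in cells with and without Tnfrsf9. The list of activation and NF-kappaB genes went both ways. Of its 21 genes, 1 was 2-fold higher in the deleted pool and 2 were lower, against 4.52% and 5.28% of all genes. The median log2 ratio was 0.10. On every deleted plate 2 of the 21 were higher and 1 was lower, against 1.62% and 2.57% of all genes.

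Genes whose levels went with a receptor or ligand were sought by the mean over 8 plates of the correlation within a plate, among 3948 genes and over 736 cells. All genes of a cell share its library and depth. Depth differed between cells, from 9905 to 2430334 reads in the deleted pool and 223440 to 2866366 in the control pool. The 3 closest to Tnfrsf9 were Itm2a (0.30), Stat5a (0.25), a factor of IL-2 family signalling, and Pa2g4 (0.25), each above 0 on all 8 plates. The closest to Tnfsf8 were Cd82 (0.23), Tbc1d4 (0.22) and Cd200 (0.20), a membrane protein of activated and follicular helper T cells. The closest to Cd40lg were Evi2a (0.21), Tmsb4x (0.20) and S100a11 (0.18). For Tnfrsf18 they were Cd82 (0.19), Gramd1b (0.18) and Tnfrsf9 (0.15), for Cd27 the closest was Lrp10 (0.14), and for Tnfrsf14 Frmd8 (0.15). Tnfrsf4 was positive in under 10% of the cells of each pool and so was not among the 3948 genes. Its correlation with Tnfrsf18 was higher than those named for Tnfrsf18, at 0.25. In counts this sparse such weak values are no more than a description.

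Most of the rest of the family was within 2-fold between the pools, as were most of all genes. Of all genes, 4.52% were 2-fold higher in the deleted pool and 5.28% lower. Of 22 other receptors 7 were measured, none past 2-fold, with a median log2 ratio of -0.32. Relt, a TNF receptor of lymphoid tissue, was lower on every deleted plate, at 40.7 CPM in the deleted pool and 61.0 CPM in the control pool, with 21 positive cells in each. Such a separation in this direction held for 2.57% of all genes. Tnfrsf26 stood at 271 CPM in the deleted pool and 344 CPM in the control pool, and Tnfrsf13b, a receptor best known from B cells, at 86.6 CPM in deleted and 119 CPM in control hosts. Tnfrsf25, the receptor DR3, was at 106 CPM in deleted and 90.4 CPM in control hosts, and Fas, the death receptor, at 62.7 CPM in deleted and 67.8 CPM in control hosts. The receptors of the ligands Cd40lg and Tnfsf8, named here after their values were seen, were under the minimum of 5 CPM. Cd40 was at 0.241 CPM in deleted and 0.201 CPM in control hosts, and Tnfrsf8 at 0.00369 CPM in deleted and 0.00174 CPM in control hosts.

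Of 15 other ligands 8 were measured, with a median log2 ratio of -0.07. Of these 8, 1 was 2-fold higher and 1 lower, against 4.52% and 5.28% of all genes. Tnfsf4, the ligand of OX40, was higher in the deleted pool, at 21.2, 56.0, 47.6 and 37.1 CPM by plate in the deleted pool and 23.0, 18.0, 16.6 and 20.6 CPM in the control pool. Deleted plates 2 to 4 were above every control plate, deleted plate 1 was among them, and the log2 ratio was 1.02 with 17 positive cells in the deleted pool and 10 in the control pool. It was under 2-fold without deleted plate 2 or 3 or control plate 2 or 3. Tnfsf9, the ligand of 4-1BB, was lower at 5.31 CPM in the deleted pool and 12.8 CPM in the control pool, but 5 cells held 95.7% of it in the deleted pool and 99.2% in the control pool, and it no longer counted as 2-fold lower without deleted plate 1 or 4 or control plate 1. Ltb, the membrane subunit of lymphotoxin, was the most widespread ligand, positive in 257 cells of the deleted pool and 286 of the control pool, at 674 CPM in deleted and 752 CPM in control hosts. Lta was at 35.5 CPM in deleted and 49.5 CPM in control hosts.

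All 19 adaptors and signalling proteins below the receptors were measured and within 2-fold, where 4.52% of all genes were 2-fold higher and 5.28% lower. Their median log2 ratio was -0.01, and it was -0.04 over all genes. Fadd, a death receptor adaptor at 12.5 CPM in deleted and 7.81 CPM in control hosts, was 2-fold higher without deleted plate 4 or control plate 3. Traf1, an adaptor induced by NF-kappaB, was at 310 CPM in the deleted pool and 335 CPM in the control pool, and Birc3, a ubiquitin ligase bound to TRAF proteins, at 189 CPM in deleted and 177 CPM in control hosts. Rbck1, of the linear ubiquitin complex, was at 362 CPM in deleted and 408 CPM in control hosts. Btla, the inhibitory partner of HVEM, was at 122 CPM in deleted and 102 CPM in control hosts.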

How the data were processed

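Single cells were measured on 8 plates, and the authors deposited unnormalized, whole-number counts of reads in each gene for every well. Per the submitters' processing notes, the authors counted reads with featureCounts 2.0.1 on mm10. Sources used here do not name the aligner, annotation or strand setting. The 32 control wells entered no comparison, and no cell well was removed. Plate and pool levels are sums over cell wells, scaled to CPM. Log2 ratios are deleted over control after adding 1 CPM, which understates folds of low genes, and genes with a mean of 5 CPM or more counted as measured. With 1 pooled sample per group no test between groups was run. Exon lengths came from GENCODE M21, used only to compare genes. Gene names were used as the tables give them. Pairs were counted where the product was at least 5 cells. The most alike genes were sought among genes positive in at least 10% of the cells of both pools, predicted genes left out. The 9 genes, the gene lists and the naming rule (all 9, measured family genes, and set context genes) were chosen with earlier results of these data known. Alternatives were edgeR 4.0.16 TMM factors, DESeq2 1.42.0 size factors, other weights, filters, thresholds and plates left out. The scripts (Python 3.11.15, R 4.3.3) were tested on simulated data. One context gene of the naming rule is not reported here.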

Additional observations from a re-analysis of the deposited data

Results flagged for a closer look

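Reads of the family also appeared in wells that entered no comparison. In the 23 control wells named mBM, a name the labels do not explain, Tnfrsf1b had a median of 57 reads and at most 516, against at most 3 in the 9 wells without a cell. Tnfrsf14 had a median of 24 reads and at most 553 in the mBM wells, against at most 1 in the wells without a cell. Cd40lg had at most 1 read in the mBM wells, and 3 in the wells without a cell. Total reads ran from 11622 to 2740373 in the mBM wells and from 6698 to 12348 in the wells without a cell. These counts are not scaled to depth, so they do not show a higher level in the mBM wells.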

How the results depend on the processing

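Of 451 values under alternatives, 394 stayed within the plate spread, interval or 1.5-fold band set for them, including all 171 log2 ratios of the 9 genes. For the ratios this says little. Their band was the spread of single plates, which is wide, and Tnfrsf4 counted as within it at both 0.16 and 1.82. The settings that changed only the filter on low counts left the ratios unchanged by construction. No gene past 2-fold changed sign, but 2 genes near 0 did: leaving out control plate 2 put Tnfrsf14 at -0.08 and leaving out deleted plate 4 put it at -0.03, while Cd40lg was at 0.09 without control plate 1 and reached at most 0.02 without deleted plate 1, 2 or 4. The count past 2-fold (1, Tnf) became 0 at a mean of 20 CPM or more, where Tnf was not tested, and ran from 1 to 2 with a plate left out: Tnfrsf9 joined without deleted plate 4 or control plate 4, and Tnfrsf4 without control plate 1. The count with CPM plates apart (0) became 2 without the highest cell of each pool (Tnfrsf18 and Tnf). It ran from 0 to 2 with a plate left out, with Tnfrsf18 and Tnfrsf1b apart without deleted plate 1, Tnf without deleted plate 2, Tnfrsf9 without deleted plate 4, and Tnfrsf18 and Tnf without control plate 2. By positive cells per plate, chosen after seeing the data, it was 2, or 2 without Foxp3-positive cells and 1 with more than 7 reads required. The other family genes past 2-fold (2, Tnfsf4 and Tnfsf9) became 0 by the mean over cells and at a pseudocount of 5 CPM, 1 without the highest cells, 1 at 20 CPM and 3 with no filter on low counts (Tnfrsf12a, lower, joined). They ran from 1 to 2 with a plate left out, and Fadd stood in for Tnfsf9 without deleted plate 4 and for Tnfsf4 without control plate 3. Shares over all genes were not taken with plates or highest cells left out, or under other filters, weights or pseudocounts. The counts in those settings therefore have nothing to be set against. With a plate left out, 3 plates stand against 4, and plates come apart more readily than with 4 against 4.

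The share with 2 or more positive genes was 99.7% in each pool at 1 read, where the background of wells without a cell is counted too, and the mean number per cell was 5.41 in deleted and 5.26 in control hosts. At 5 reads the shares were 57.6% in deleted and 64.9% in control hosts and the means 2.04 in each. At 50 CPM they were 44.3% and 1.62 in deleted hosts. With a plate left out the share ran from 46.7% to 52.2% in deleted hosts and from 52.9% to 55.4% in control hosts. Pairs at 1.5 or more (10) became 0 at 1 read and 6 by genes detected, and 11 in the deleted pool and 7 in the control pool alone. The cause of these shifts was not tested. No paired analysis was possible because each group is 1 pooled sample.

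Thinning each cell to 500000 reads kept 364 cells of deleted hosts and 366 of control hosts, and the share with 2 or more positive genes was 49.5% in deleted hosts and 54.9% in control hosts. Few positive cells limit what can be said of Tnf and Tnfrsf4.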
